A study of Homo sapiens with 12 samples.

Results

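Elastic fibres are built from a core of elastin on a scaffold of fibrillin microfibrils. Followed here were 10 genes that code for their proteins or for related proteins: FBLN1, FBLN2, FBLN5, EFEMP1, EFEMP2, ELN, FBN1, FBN2, LTBP1 and HMCN1. They were taken by name from the table of gene counts, in which each had 1 row, so that 10 of 58735 gene IDs were used as members. The RNA came from the human liposarcoma line SW872, with 2 libraries in each of 6 groups. All groups stably expressed a fusion protein, either TAZ-CAMTA1 (TC) or YAP-TFE3 (YT). Each fusion line carried a stable short hairpin RNA that was non-targeting (shNT), or was directed against YEATS2 (shYEATS2) or ZZZ3 (shZZZ3). YEATS2 and ZZZ3 are subunits of the ATAC complex, a histone acetyltransferase, and the comparisons ask how the transcripts change when a subunit is depleted. The lines are pools of cells selected after retroviral transduction, not single clones, and cells without a fusion protein were not analysed here. The study's general methods collected lines with CAMTA1 before confluence and other lines after it. Whether this covers the TC line or these knock-down libraries is not stated. If it does, fusion and cell density cannot be told apart between TC and YT.

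In tissue, fibrillin-1 and fibrillin-2 polymerise into microfibrils, and tropoelastin, the product of ELN, is deposited on them and crosslinked by lysyl oxidases. The short fibulins bridge the parts: fibulin-5 (FBLN5) binds elastin and cell surface integrins, fibulin-4 (EFEMP2) brings lysyl oxidase to elastin, and fibulin-3 (EFEMP1) is a related matrix glycoprotein. Fibulin-1 (FBLN1) and fibulin-2 (FBLN2) are longer members of the family that also bind basement membrane proteins. LTBP1 holds latent TGF-beta in the matrix along microfibrils, and hemicentin-1 (HMCN1) is a very large extracellular protein with fibulin-like domains.

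The promoters of FBLN5, FBN2 and FBN1 are shown because FBLN5 and FBN2 gave some of the largest changes, in opposite directions, and because FBN2 and FBN1 hold the matches to the binding motifs searched for. Each is the 300 bases from 250 before to 50 after a start site annotated by RefSeq (GRCh38.p14), and all 4 are on the minus strand. The table of promoters held windows for 7 of the 10 genes, 11 windows in all, and none for EFEMP1, ELN and HMCN1. The letters searched on both strands were GGAATG, bound by TEAD factors that YAP and TAZ use, and CACGTG, an E-box bound by TFE3 and its relatives. In the members' windows no match of one string overlapped a match of the other. Capitals mark a match.
FBLN5, upstream start, chr14:91947645-91947944: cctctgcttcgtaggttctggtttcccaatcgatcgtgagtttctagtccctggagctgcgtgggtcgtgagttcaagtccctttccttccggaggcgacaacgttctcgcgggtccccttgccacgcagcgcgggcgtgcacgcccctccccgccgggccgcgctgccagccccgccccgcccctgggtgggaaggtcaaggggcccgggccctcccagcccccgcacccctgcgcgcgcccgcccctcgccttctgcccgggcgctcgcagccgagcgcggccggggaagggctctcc
FBLN5, downstream start, chr14:91946983-91947282: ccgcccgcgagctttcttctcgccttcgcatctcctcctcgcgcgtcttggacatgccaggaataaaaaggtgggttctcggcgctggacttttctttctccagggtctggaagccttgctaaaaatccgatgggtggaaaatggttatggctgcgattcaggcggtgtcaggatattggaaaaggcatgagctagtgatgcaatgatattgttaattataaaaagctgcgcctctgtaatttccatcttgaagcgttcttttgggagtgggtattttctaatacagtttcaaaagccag
FBN2, chr5:128538196-128538495: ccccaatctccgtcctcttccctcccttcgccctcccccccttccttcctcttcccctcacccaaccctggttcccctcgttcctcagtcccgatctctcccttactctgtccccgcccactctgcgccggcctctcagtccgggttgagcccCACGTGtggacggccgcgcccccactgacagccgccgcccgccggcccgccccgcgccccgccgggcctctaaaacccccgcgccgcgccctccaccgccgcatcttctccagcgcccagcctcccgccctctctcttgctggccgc
FBN1, chr15:48644921-48645220: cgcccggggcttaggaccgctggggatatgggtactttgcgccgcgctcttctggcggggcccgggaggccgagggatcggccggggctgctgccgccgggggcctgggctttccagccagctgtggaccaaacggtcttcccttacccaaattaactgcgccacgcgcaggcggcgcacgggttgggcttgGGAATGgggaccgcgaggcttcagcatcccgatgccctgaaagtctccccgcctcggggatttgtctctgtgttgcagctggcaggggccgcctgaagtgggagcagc
Of the 11 windows, 1 held GGAATG (FBN1, first base 58 bases before the start) and 1 held CACGTG (FBN2, 97 bases before the start). Of 34943 promoter windows in the table, 14% held GGAATG and 7.23% held CACGTG. The FBLN5 windows held neither string. They differed in base composition, with a GC content of 73% at the upstream start and 47.3% at the downstream start. The gene counts do not say which start was used.

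Total counts were 17451893 to 29294805 per library, and levels are given as TMM-normalised CPM, that is, counts scaled to a common library total. YEATS2 fell in both lines with its hairpin (log2 fold change -1.54 in TC and -1.68 in YT). ZZZ3 fell with its hairpin in YT (-1.51, adjusted p = 0.0453), whereas in TC its value was -0.94 with both libraries below the controls but no call (adjusted p = 0.45). ZZZ3 differed as much with the YEATS2 hairpin in YT (-0.95, both libraries below the controls, adjusted p = 0.13), and was at -0.05 with it in TC. These are RNA values. The study also reported the knock-down of ZZZ3 in TC cells at the protein level, by western blot, which was not examined here. Mesenchymal markers summed to 1212 CPM or more in every library and leukocyte markers to 0.655 CPM or less. The 6 adipocyte markers summed to 123 to 344 CPM, nearly all of it LPL and PPARG, while ADIPOQ and FABP4 were at 0.296 CPM or less, PLIN1 at 1.55 or less and CEBPA at 3.75 or less. The 3 epithelial markers summed to 216 to 740 CPM, of which KRT18 gave nearly all and EPCAM and CDH1 1.91 CPM or less. The libraries of 3 groups stood apart: the 2 replicates correlated at 0.952 in TC shNT, 0.966 in TC shYEATS2 and 0.961 in YT shZZZ3, against 0.991 to 0.994 in the other groups. Each TC shNT library was nearer to the TC shYEATS2 library of the same number than to its own replicate, and each TC shYEATS2 library likewise to that of TC shNT. The YT shZZZ3 libraries were also nearer to TC libraries than to each other, replicate 1 to TC shZZZ3 replicate 1 (0.968) and replicate 2 to TC shNT replicate 2 (0.967). The sum of 4 endothelial markers was 46.8 CPM in 1 TC shYEATS2 library and 245 CPM in the other, and 137 to 139 CPM in YT shZZZ3 against 40.5 to 42.3 CPM in YT shNT. Whether this has a part in the values below was not tested.

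Relative to transcript length, the 10 genes covered a wide range of levels. In TC shNT the mean level per kilobase of exon was 54.9 CPM for FBLN2, 38.8 for EFEMP2 and 34.5 for FBLN1. EFEMP2 overlapped between libraries with both of the others, whereas FBLN2 (47.9 to 61.8) lay above FBLN1 (26.6 to 42.5). LTBP1 followed at 15.2 CPM per kilobase, then FBN1 at 4.64, FBLN5 at 2.43, FBN2 at 1.73, EFEMP1 at 1.55, HMCN1 at 0.707 and ELN at 0.115. ELN was the lowest of the 10 in every group and FBLN2 the highest by this measure. Divided instead by the longest protein-coding transcript, EFEMP2 was the highest in all groups, so the order depends in part on the gene model. Per kilobase of exon, FBLN5 was at place 5 in YT shNT (9 CPM per kilobase) and at place 9 in YT shYEATS2 (0.711). HMCN1 went from place 9 (0.568) to place 7 (9.05). By the longest protein-coding transcript FBLN5 went from place 4 to place 9 and HMCN1 from place 9 to place 8.

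**Figure D1:**
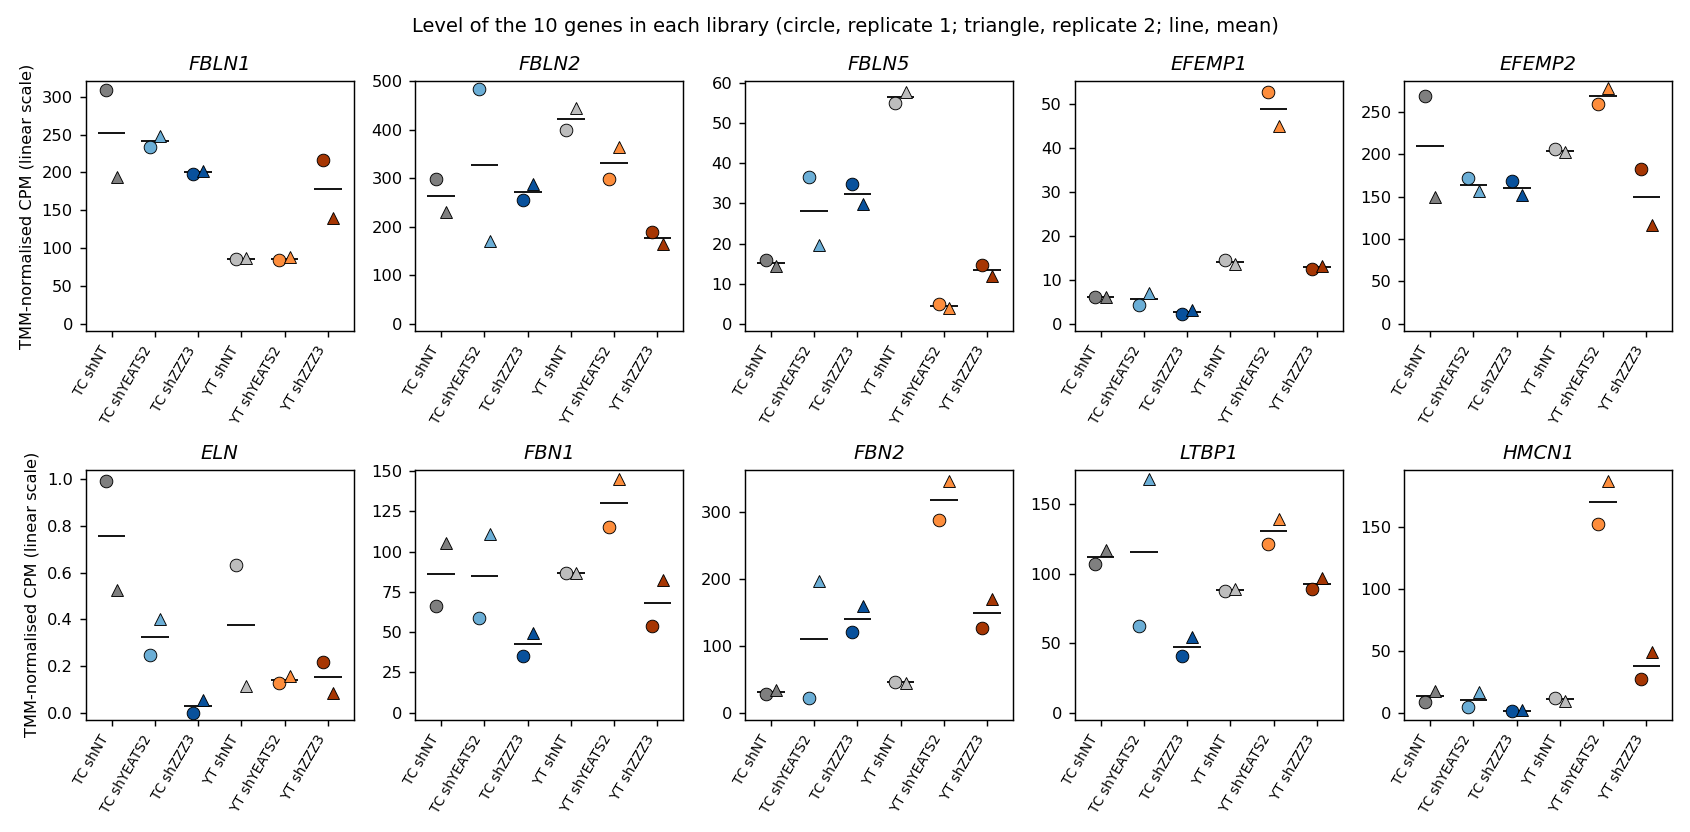
TMM-normalised CPM of each of the 10 genes in the 12 libraries, on linear axes with a scale of its own for each gene, with replicate 1 as circles, replicate 2 as triangles and the mean of the group as a line. FBLN5 is highest in the YT shNT libraries (55 and 57.7 CPM) and lowest in YT shYEATS2 (5.04 and 3.87 CPM), while EFEMP1, FBN2 and HMCN1 are highest in YT shYEATS2.

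The knock-downs were tested against shNT within each line (edgeR quasi-likelihood test, adjusted over all 18415 genes tested, called at an adjusted p under 0.05). All 10 genes passed the filter of a mean of 5 counts, but ELN (mean 6.75) only through TC shNT, where it is highest, since its mean over the other groups was 4.4. ELN is therefore described by its counts, and it is among none of the calls of this fit. The alternative fits given at the end do include it. In TC, shYEATS2 gave 0 calls among the 10 genes, where 0.0434% of all genes tested were called (0.0326% higher, 0.0109% lower). An unadjusted p under 0.05 was found for 2 members, beside 927 of all 18415 genes tested. DESeq2 also called 0 members, beside 114 of all genes. With shZZZ3 in TC 1 gene was called (HMCN1, lower), against 1.53% of all genes (0.934% higher, 0.592% lower). With shYEATS2 in YT 4 were called, FBLN5 lower and EFEMP1, FBN2 and HMCN1 higher, where 20.7% of all genes were called (9.61% higher, 11.1% lower). With shZZZ3 in YT 2 were called, FBLN5 lower and FBLN1 higher, against 10% of all genes (4.4% higher, 5.62% lower). The median log2 fold change of the 9 genes other than ELN was -0.02, -0.39, 0.57 and -0.12 in these comparisons, beside medians of all genes between -0.01 and 0.01.

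The difference between the lines was then tested as an interaction, the log2 effect of a hairpin in YT minus that in TC. For the YEATS2 hairpin 3 of the 10 genes were called (FBLN5, EFEMP1 and HMCN1), against 9.37% of all genes (3.53% with a positive and 5.84% with a negative difference). For the ZZZ3 hairpin 3 were called (FBLN1, FBLN5 and HMCN1), against 4.32% (1.46% positive, 2.86% negative). Between the control lines, YT shNT against TC shNT, 3 were called (FBLN5 and EFEMP1 higher in YT, FBLN1 lower), against 9.23% (5.58% higher, 3.65% lower). Between the 2 hairpins within TC 0 were called, against 1.2% of all genes (0.619% higher and 0.581% lower with shYEATS2). An unadjusted p under 0.05 was found for 4 of the 9 members other than ELN, beside 1824 of all 18415 genes tested. DESeq2 called 3 members, and its count over all genes is given at the end. Within YT 4 were called, FBLN1 and FBLN5 lower and EFEMP1 and HMCN1 higher with shYEATS2 than with shZZZ3, against 7.21% (3.42% higher, 3.79% lower). These comparisons share libraries, so a gene called in several of them is not repeated evidence.

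**Figure D2:**
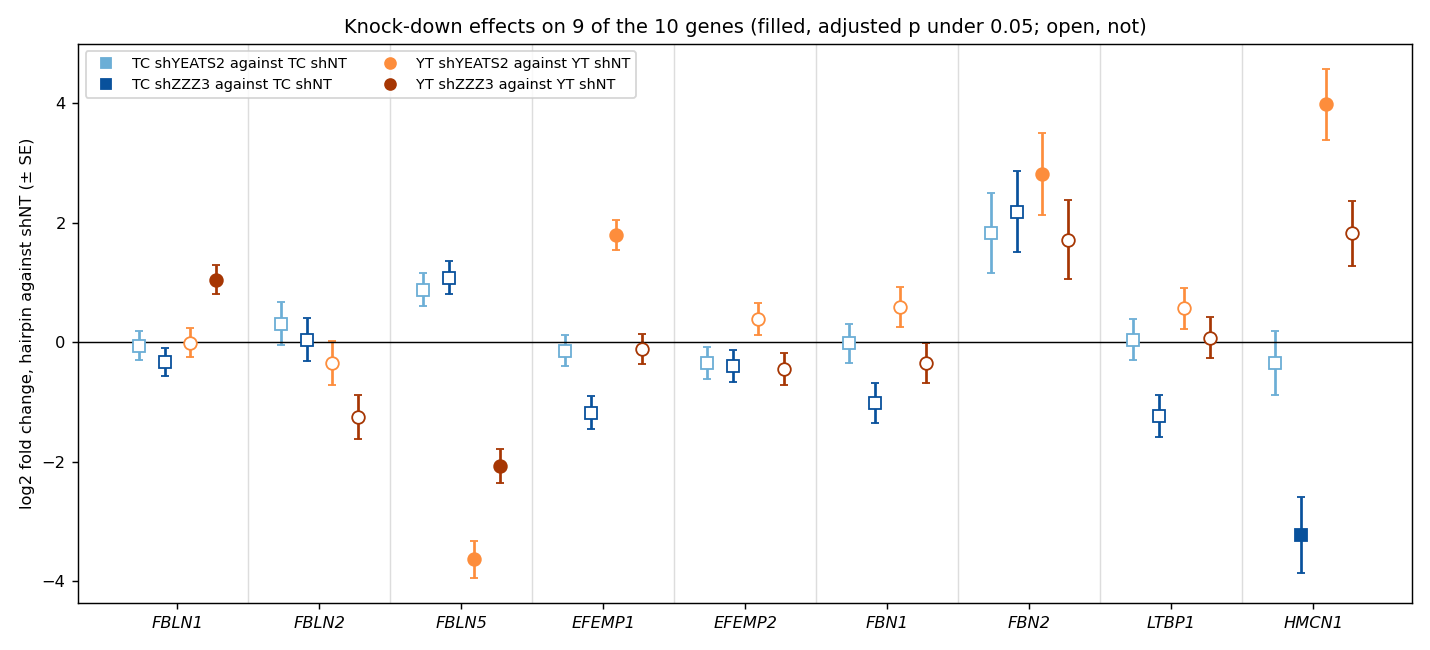
Log2 fold change against shNT for 9 of the 10 genes (ELN is left out) in the 4 knock-downs, with bars of 1 standard error, squares for TC and circles for YT, and filled symbols where the adjusted p was under 0.05. FBLN5 lies at -3.63 and -2.07 in YT and above 0 in TC, and HMCN1 lies at 3.98 in YT shYEATS2 and at -3.23 in TC shZZZ3.

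Of the falls that were called, the largest was that of FBLN5 in YT, where it was lower with both hairpins. Its level was 16 and 14.5 CPM in TC cells with shNT, 36.5 and 19.7 with shYEATS2 and 34.8 and 29.9 with shZZZ3. In YT it was 55 and 57.7 CPM with shNT, 5.04 and 3.87 CPM with shYEATS2 and 14.7 and 12 CPM with shZZZ3. The YT controls were thus the highest of all libraries, and both knock-downs of YT lay below every TC library except that YT shZZZ3 replicate 1 was between the TC controls. YT shNT exceeded TC shNT by 1.88 ± 0.28 on the log2 scale (SE, adjusted p = 0.00194). In YT the log2 fold change was -3.63 ± 0.31 with shYEATS2 (adjusted p = 3.39e-05), a level of 0.0807 of the control. With shZZZ3 it was -2.07 ± 0.28 (adjusted p = 0.00138), and the 2 hairpins differed by -1.56 ± 0.29 (shYEATS2 minus shZZZ3, adjusted p = 0.00726).

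In TC both knock-downs lay above both controls for FBLN5, without a call. The log2 fold change was 0.88 with shYEATS2 (95% interval 0.28 to 1.48, adjusted p = 0.49) and 1.08 with shZZZ3 (0.47 to 1.68, adjusted p = 0.0978). The shZZZ3 value was past the threshold in 7 of 20 alternative analyses, DESeq2 among them (adjusted p = 0.0109). The interaction was -4.51 ± 0.41 for the YEATS2 hairpin (adjusted p = 1.27e-04) and -3.15 ± 0.39 for the ZZZ3 hairpin (adjusted p = 0.00175), and the calls held in all 20 alternatives for both. FBLN5 is one of the matrix genes that the study singled out as most lowered over the TC and YT knock-downs in these libraries. Its rule asked for a decrease of 2-fold or more in 2 or more of the knock-downs. The fall of FBLN5 in YT is therefore not independent evidence, and its TC values here lie in the other direction. The study also measured these matrix genes by quantitative RT-PCR, which was not examined here. The call between the 2 hairpins in YT was lost without either YT shYEATS2 library (adjusted p = 0.054 without replicate 1 and 0.0987 without replicate 2).

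The other short fibulins moved differently from FBLN5. EFEMP1 was at 6.1 and 6.21 CPM in TC cells with shNT, 4.19 and 7.03 with shYEATS2 and 2.31 and 3.05 with shZZZ3, while YT cells gave 14.5 and 13.5 with shNT, 52.7 and 45 with shYEATS2 and 12.6 and 13.2 with shZZZ3. Both YT shYEATS2 libraries stood above all others. EFEMP1 rose by 1.79 ± 0.26 on the log2 scale with shYEATS2 in YT (adjusted p = 6.65e-04). With shZZZ3 in YT the value was -0.12 (95% interval -0.67 to 0.43), and the hairpins differed by 1.91 ± 0.26 (adjusted p = 0.00127). The YEATS2 interaction was 1.94 ± 0.36 (adjusted p = 0.00661).

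In TC, EFEMP1 was at -1.18 with shZZZ3, with both libraries below both controls (adjusted p = 0.0599), and at -0.14 with shYEATS2. The control lines differed by 1.18 ± 0.26 (adjusted p = 0.0155), a call lost without TC shNT replicate 1 (adjusted p = 0.0657) or without YT shNT replicate 1 (0.128) or 2 (0.0983). EFEMP2 was more even, between 116 CPM in YT shZZZ3 replicate 2 and 278 CPM in YT shYEATS2 replicate 2. No comparison called it, and its largest log2 difference was 0.84 between the hairpins in YT (95% interval 0.25 to 1.44, adjusted p = 0.0911), with both shYEATS2 libraries above both shZZZ3 libraries. This difference passed the threshold in 9 of 20 alternatives (lowest adjusted p 0.00173), DESeq2 among them (adjusted p = 0.0341). Exons of EFEMP2 and MUS81, on the opposite strand, overlap by 11 bases.

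Of the long fibulins, FBLN1 was at 309 and 194 CPM in TC cells with shNT, 234 and 249 with shYEATS2 and 198 and 202 with shZZZ3. In YT it was at 85.4 and 87.3 CPM with shNT, 83.8 and 88.4 with shYEATS2 and 216 and 140 with shZZZ3. The 4 libraries of YT shNT and YT shYEATS2 were thus the lowest, and YT shZZZ3 lay apart from them. Between the control lines FBLN1 differed by -1.54 on the log2 scale (YT minus TC, SE 0.25, adjusted p = 0.00297), and this call held in all alternatives. It rose by 1.05 ± 0.24 with shZZZ3 in YT (adjusted p = 0.0205) and was at 0.00 with shYEATS2 (95% interval -0.54 to 0.53), and the hairpins differed by -1.05 ± 0.24 (adjusted p = 0.024). The rise with shZZZ3 lost its call without either YT shNT library or YT shZZZ3 replicate 1 (adjusted p = 0.102 to 0.127). The ZZZ3 interaction of 1.38 ± 0.34 (adjusted p = 0.0469) lost its call in 9 of 20 alternatives. With the trend on GC content removed from each library, the YT shZZZ3 values of FBLN1 were 190 and 166 CPM and those of YT shNT 95.8 and 94.9 CPM.

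FBLN2 was at 298 and 231 CPM in TC cells with shNT, 485 and 170 with shYEATS2 and 256 and 290 with shZZZ3, while YT cells gave 399 and 445 with shNT, 299 and 364 with shYEATS2 and 189 and 166 with shZZZ3. The widest gap between replicates was in TC shYEATS2, where the log2 difference of 1.51 was larger than for 98.1% of genes. No comparison called FBLN2. In YT both knock-downs lay below both controls, at -0.35 with shYEATS2 (95% interval -1.14 to 0.45) and -1.25 with shZZZ3 (-2.06 to -0.44, adjusted p = 0.0539). The second value passed the threshold in 10 of 20 alternatives, DESeq2 among them (adjusted p = 0.00931).

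ELN, the gene of tropoelastin, was close to the limit of detection. It had 26 and 11 counts in TC cells with shNT, 7 and 8 with shYEATS2 and 0 and 1 with shZZZ3, while YT cells gave 12 and 2 with shNT, 3 and 3 with shYEATS2 and 6 and 2 with shZZZ3. The TC controls were the highest pair on average and TC shZZZ3 the lowest. Summed over the pair this was 37 counts against 1. These groups are picked here as the highest and the lowest, and ELN passes the filter only through TC shNT. Their ratio is therefore not given as support for a difference. In YT the control libraries overlapped both knock-downs. At 3 counts, taken as the floor, a library allowed a level of up to 0.106 to 0.173 CPM. Exons of ELN share 165 bases with ELN-AS1 on the opposite strand, which had 0 to 3 counts per library.

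The fibrillins differed from each other. FBN2 was at 27.4 and 34.3 CPM in TC cells with shNT, 22 and 198 with shYEATS2 and 121 and 160 with shZZZ3. In YT it was at 45.4 and 45 CPM with shNT, 289 and 348 with shYEATS2 and 127 and 170 with shZZZ3. Except for TC shYEATS2 replicate 1, every knock-down library was above every control library. FBN2 rose by 2.81 ± 0.69 with shYEATS2 in YT (adjusted p = 0.0148), a 7.04-fold difference. This call was lost when any 1 of the 4 libraries compared was left out, with adjusted p between 0.0566 and 0.109 and values between 2.68 and 2.95.

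With shZZZ3, FBN2 was at 1.72 in YT (95% interval 0.26 to 3.17, adjusted p = 0.136) and at 2.19 in TC (0.71 to 3.67, adjusted p = 0.189). The TC shYEATS2 libraries are not compared there but share in the estimate of spread and in the scaling. Without replicate 1 of that group both values were called (1.74, adjusted p = 0.00125 in YT and 2.16, 0.00155 in TC), and so they were without replicate 2 (0.00124 and 0.00156). The replicates of TC shYEATS2 differed by 3.16 on the log2 scale for FBN2, more than for 99.9% of genes. The TC shYEATS2 value was 1.83 with both libraries (adjusted p = 0.745), -0.50 without replicate 2 and 2.66 without replicate 1 (adjusted p = 0.00411). Exons of FBN2 share 56 bases with SLC27A6 on the opposite strand, which had 0 to 16 counts per library against 625 to 6951 for FBN2.

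FBN1 was at 66.5 and 105 CPM in TC cells with shNT, 58.6 and 111 with shYEATS2 and 35.1 and 49.8 with shZZZ3, while YT cells gave 86.5 and 86.5 with shNT, 115 and 145 with shYEATS2 and 54 and 82.2 with shZZZ3. No comparison called it. TC shZZZ3 lay below both TC controls (-1.02, 95% interval -1.75 to -0.28, adjusted p = 0.224), and YT shYEATS2 lay above both YT controls (0.59, -0.14 to 1.32, adjusted p = 0.226). In 5 of 6 groups replicate 2 was above replicate 1, and in YT shNT the 2 were equal to 3 digits.

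LTBP1, the carrier of latent TGF-beta, was at 107 and 117 CPM in TC cells with shNT, 62.3 and 168 with shYEATS2 and 40.4 and 54.5 with shZZZ3, while YT cells gave 87.3 and 88.7 with shNT, 121 and 140 with shYEATS2 and 88.7 and 97 with shZZZ3. TC shZZZ3 was the lowest pair and did not overlap any other group. It was at -1.24 against TC shNT (95% interval -2.01 to -0.47, adjusted p = 0.144). This value was past the threshold with DESeq2 (adjusted p = 0.0268) and without either TC shYEATS2 library (0.00748 and 0.00759), 5 of 20 alternatives in all. With shYEATS2 in YT the value was 0.57 (-0.19 to 1.33), with both libraries above both controls.

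Among the calls, HMCN1 gave the largest rise and the largest difference between lines. It was at 8.85 and 17.6 CPM in TC cells with shNT, 4.37 and 16.5 with shYEATS2 and 0.893 and 1.82 with shZZZ3. In YT it was at 12 and 9.26 CPM with shNT, 152 and 187 with shYEATS2 and 26.7 and 49.1 with shZZZ3. The YT controls lay within the range of the TC controls, and the YT knock-downs lay above that range while TC shZZZ3 lay below it. HMCN1 rose by 3.98 ± 0.59 with shYEATS2 in YT (adjusted p = 8.34e-04), a 15.8-fold difference that held its call in all 20 alternatives. With shZZZ3 in YT the value was 1.82 (95% interval 0.63 to 3.02, adjusted p = 0.0568), past the threshold in 10 of 20 alternatives.

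In TC, HMCN1 fell by 3.23 with shZZZ3 (SE 0.64, adjusted p = 0.0258), from 232 and 369 counts to 22 and 34. That call was lost in 7 of 20 alternatives, each of which left out 1 library: TC shNT replicate 2 (adjusted p = 0.0858), either TC shZZZ3 library (0.3 and 0.144), either YT shNT library (0.0518 and 0.0524) or either YT shYEATS2 library (0.0621 and 0.0623). The ZZZ3 interaction was 5.05 ± 0.84 (adjusted p = 0.0071) and the YEATS2 interaction 4.33 ± 0.78 (adjusted p = 0.00531). The difference between hairpins in YT, 2.16 ± 0.54 (adjusted p = 0.0321), lost its call in 6 of 20 alternatives. The ZZZ3 interaction lost it in 2 (adjusted p = 0.0519 and 0.0534).

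Some of the spread between replicates moved with base composition. Across the genes with 50 or more counts on average, the log2 difference between the replicates rose by 0.566 for each 10 percentage points of GC content in TC shNT (correlation across genes 0.789) and by 0.453 in YT shZZZ3 (0.704). In the other groups the slope was between -0.111 and 0.166. The members have a GC content of 44.7% (HMCN1) to 61.9% (FBLN2) in their longest transcript. The members followed this in part. In both groups FBLN1 (57% GC) was higher in replicate 1 (by 0.68 and 0.62) and HMCN1 higher in replicate 2 (by 0.99 and 0.87). EFEMP1, at 44.9% as GC-poor as HMCN1, was at -0.03 and -0.08 (replicate 1 minus replicate 2), and FBLN2 at 0.37 and 0.19. With the trend removed, HMCN1 was at 9.68 and 16.9 CPM in TC shNT and FBLN5 at 14.9 and 16.1 CPM.

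**Figure D3:**
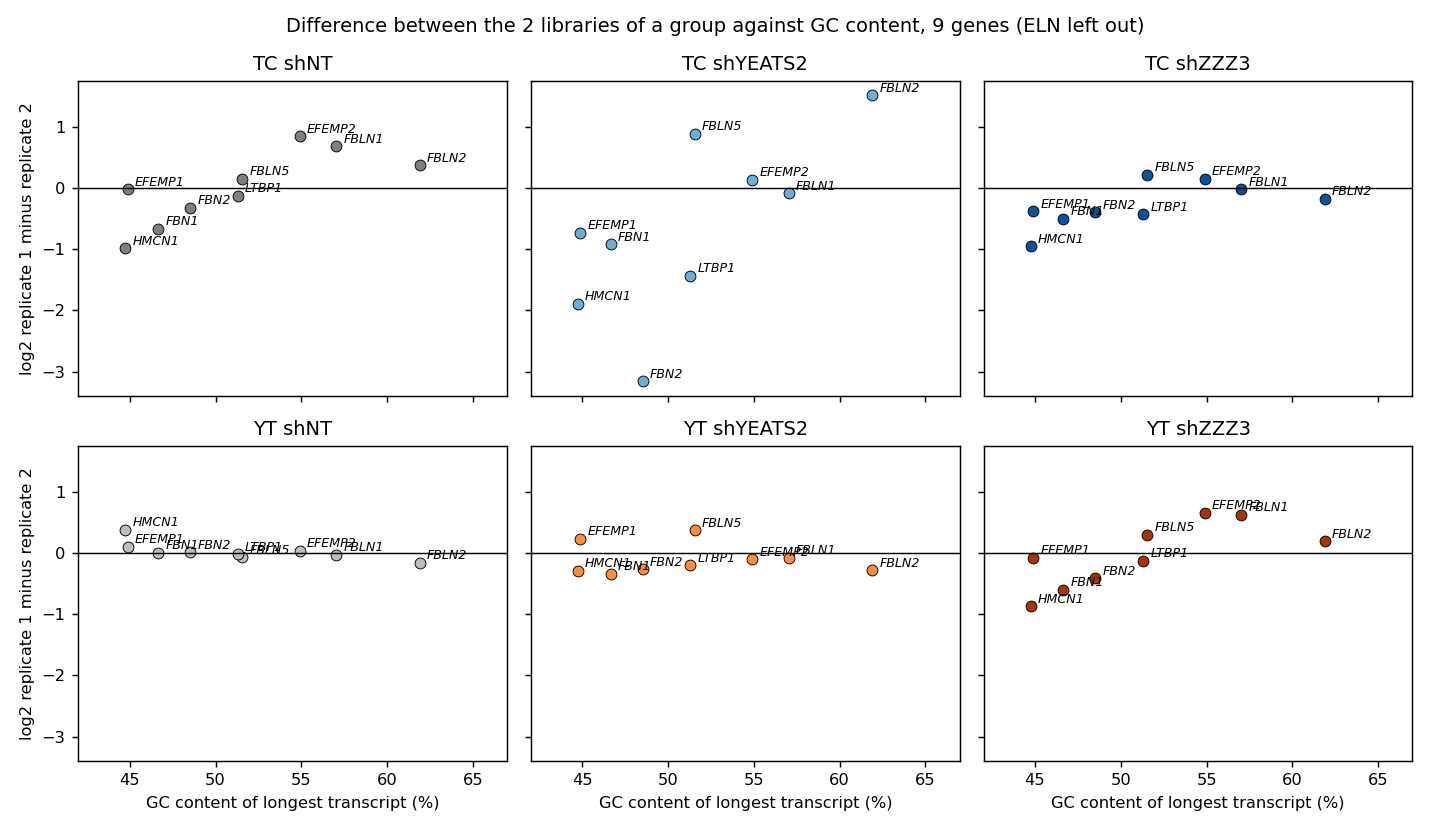
Log2 difference between the 2 libraries of each group for 9 of the 10 genes (ELN is left out for its low counts) against the GC content of the longest transcript in percent. HMCN1 and FBN1 lie below 0 and FBLN1 and EFEMP2 above 0 in TC shNT and YT shZZZ3, with EFEMP1 near 0, the points stay within 0.38 of 0 in YT shNT, and FBN2 lies at -3.16 in TC shYEATS2.

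Another 39 genes of elastic fibres and their surroundings were examined, of which 37 passed the filter; HMCN2 and ITGB6 did not. Of these 37, 14 were called with shYEATS2 in YT (8 higher, 6 lower), which is 37.8% beside 20.7% of all genes. With shZZZ3 in YT 8 were called (4 higher, 4 lower), 21.6% beside 10% of all genes, and with shZZZ3 in TC 1, 2.7% beside 1.53%. With shYEATS2 in TC 0 were called beside 0.0434% of all genes. There 3 had an unadjusted p under 0.05, beside 927 of all 18415 genes tested. The median log2 fold change of the 37 was between -0.14 and 0.03 in the 4 knock-downs. The interactions called 9 for YEATS2 (24.3% beside 9.37% of all genes) and 8 for ZZZ3 (21.6% beside 4.32%), and YT shNT against TC shNT called 9 (24.3% beside 9.23%).

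Among genes that bind microfibrils or elastin, 6 of 12 were called with shYEATS2 in YT (3 higher, 3 lower) and 4 of 12 with shZZZ3, 50% and 33.3% beside 20.7% and 10% of all genes. MFAP4, a microfibril-associated glycoprotein, was at 124 and 156 CPM in YT cells with shNT, 10.8 and 10.9 with shYEATS2 and 24.5 and 16 with shZZZ3. Its log2 fold change was -3.68 with shYEATS2 (adjusted p = 2.01e-05) and -2.78 with shZZZ3 (adjusted p = 2.84e-04), and in TC it was at 69.4 and 45.9 CPM with shNT. VCAN, the proteoglycan versican that binds fibulins and fibrillin, went the other way, from 34.7 and 23 CPM in the YT controls to 161 and 150 with shYEATS2 and 320 and 534 with shZZZ3. MFAP2, which codes for a small microfibril protein, rose with shYEATS2 in YT (2.54 ± 0.68, adjusted p = 0.0204). EMILIN2 rose with shZZZ3 in TC (1.14 ± 0.21, adjusted p = 0.0191) to 48 and 48.9 CPM, against 19 to 25.8 CPM in all other groups.

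Among the remaining family members 2 of 5 were called with each hairpin in YT, 40% beside the same shares of all genes. LTBP2 rose (1.80 and 1.16), and FBN3 fell from 1.27 and 1.27 CPM to 0.167 and 0.103 with shYEATS2 and to 0.218 and 0.169 with shZZZ3, values close to the floor. Of the 5 crosslinking genes, 2 were called with shYEATS2 in YT (LOXL3 higher, LOXL1 lower) and LOX alone, lower, with shZZZ3, 40% and 20% beside 20.7% and 10%. LOX, a lysyl oxidase, was at 65.6 and 65.4 CPM in YT cells with shNT, 65.7 and 60.4 with shYEATS2 and 24 and 30.3 with shZZZ3, and at 9.5 and 16.3 in TC shNT. The hairpins differed for LOX in YT by 1.21 ± 0.32 (shYEATS2 minus shZZZ3, adjusted p = 0.0431). LOXL1 was at 3.17 CPM or less throughout, and its called fall in YT lay close to the floor. Its mean was 0.463 CPM in YT shNT and 0.0258 CPM in YT shYEATS2, the second under the level of 3 counts.

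Of the 8 genes of latent TGF-beta and its activation, 2 were called with shYEATS2 in YT, both higher. At 25% this is near the 20.7% of all genes. With shZZZ3 in YT 0 were called, beside 10% of all genes. There 1 had an unadjusted p under 0.05, beside 4508 of all 18415 genes tested. TGFBR2, a TGF-beta receptor, was at 533 and 470 CPM in YT cells with shYEATS2, 198 and 212 with shZZZ3 and 205 and 217 with shNT, and the hairpins differed by 1.29 ± 0.19 (adjusted p = 0.00205). Of the 7 integrin genes tested, 2 were called with shYEATS2 in YT (ITGB8 higher, ITGB3 lower) and 1 with shZZZ3 (ITGA9, higher), 28.6% and 14.3% beside 20.7% and 10%, shares not far from those of all genes. ITGB3, the beta subunit of an RGD-binding integrin, was at 28.3 and 31.1 CPM in YT shNT and 12.3 and 10.4 in YT shYEATS2, and its interaction was -2.02 ± 0.49 for the YEATS2 hairpin (adjusted p = 0.0229) and -2.18 ± 0.48 for the ZZZ3 hairpin (adjusted p = 0.0266). ITGA9, an integrin alpha subunit, was lower in YT shNT (10.5 and 9.95 CPM) than in TC shNT (62.2 and 77.1 CPM), a log2 difference of -2.76 ± 0.36 (adjusted p = 9.00e-04). LOX was higher in YT shNT by 2.34 ± 0.34 (adjusted p = 0.00159).

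**Figure D4:**
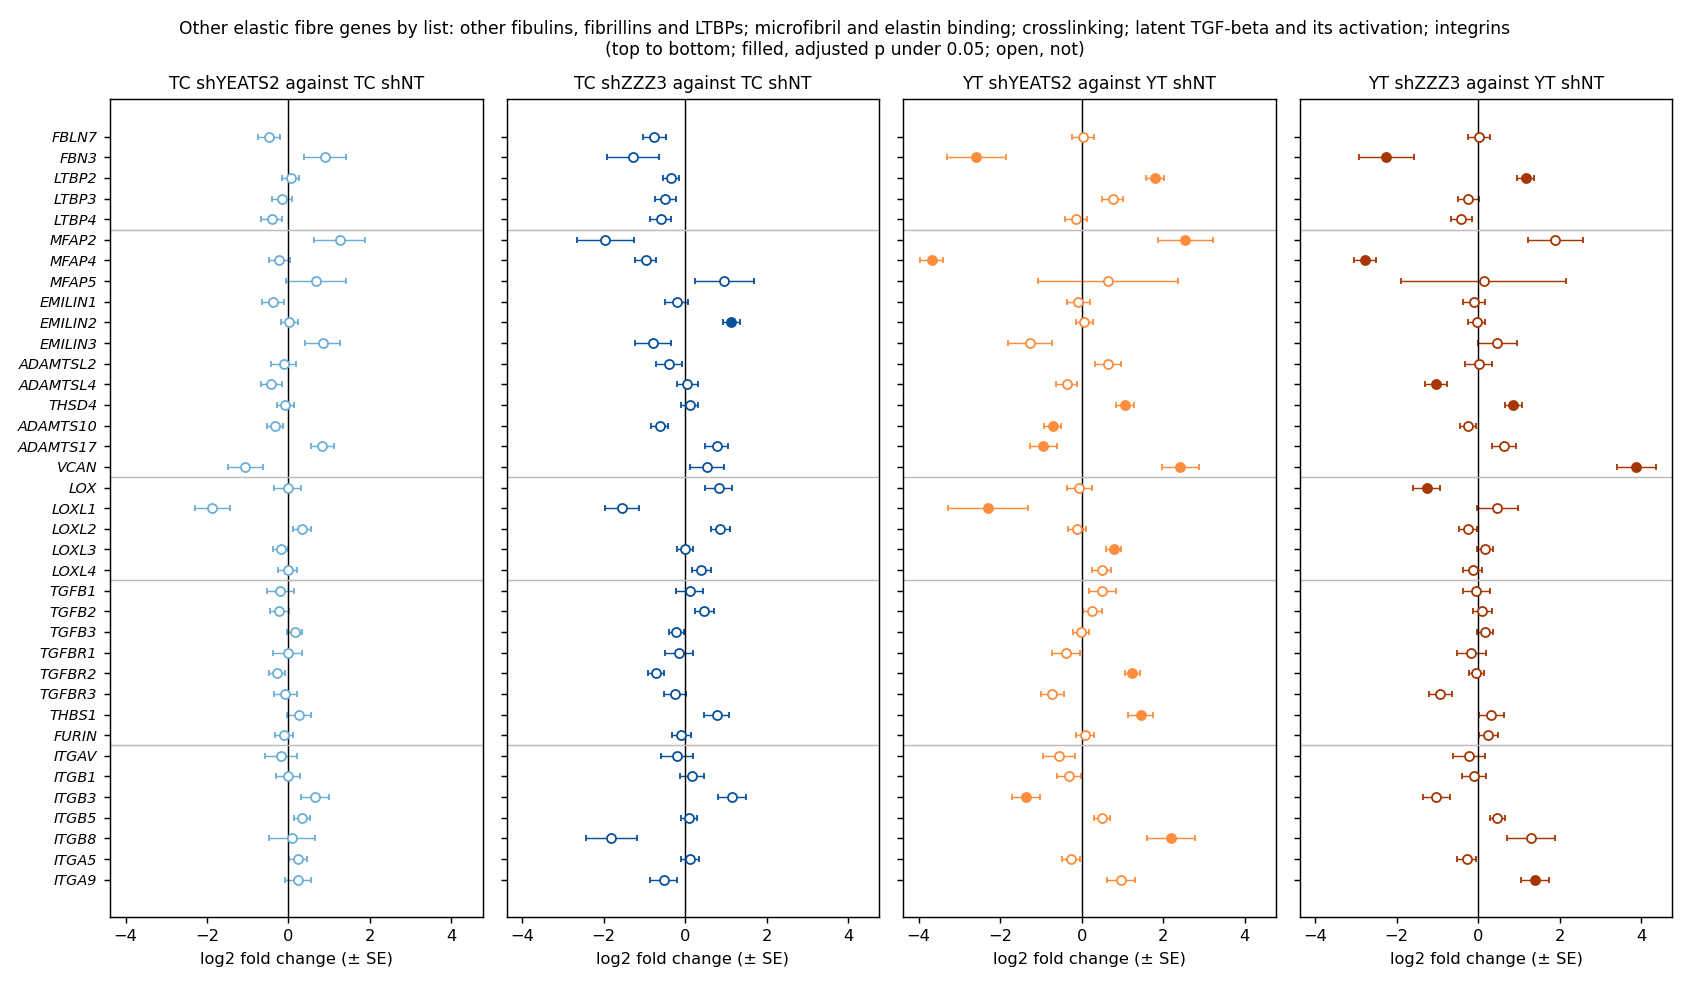
Log2 fold change against shNT in the 4 knock-downs, with bars of 1 standard error, for the 37 other genes of elastic fibres and their surroundings. Genes are grouped by list from top to bottom, with filled symbols where the adjusted p was under 0.05. Filled symbols lie on both sides of 0 in YT, from MFAP4 at -3.68 to VCAN at 3.88, and EMILIN2 in TC shZZZ3 is the 1 filled symbol in TC.

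Among the genes whose levels followed FBLN5 most closely across the 12 libraries were FAM149A (Pearson correlation of log2 CPM 0.973), ATP2B2 (0.962), TMEM255A (0.96) and PVT1 (0.958), out of 13257 genes whose counts averaged 50 or more. By rank correlation ATP2B2 shared the second place and TMEM255A was in the 24th place. The 12 points share 6 groups and the same libraries, so these values describe the pattern and were not tested. TMEM255A was at 46.6 and 38.8 CPM in YT cells with shNT, 3.45 and 2.79 with shYEATS2 and 6.7 and 8.59 with shZZZ3. Of the 8 other members compared (ELN was below 50 counts), FBLN2 had the highest correlation (0.317) and HMCN1 the lowest (-0.802), with EFEMP1 at -0.644 and FBN2 at -0.619.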

How the data were processed

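RNA from SW872 cells was sequenced as stranded, poly(A)-selected, paired-end libraries. According to the study's methods and the labels, the authors aligned the reads with HISAT2 in the bcbio-nextgen pipeline to hg38 and deposited raw counts per Ensembl gene. Salmon is also described, and which tool gave the deposited counts, and how strand and multiply mapped reads were handled, is not given in the sources used here. The 12 libraries were grouped by their labels into 6 groups of 2. The study describes replicates for sequencing as separate transductions, but of triplicates, and whether this holds for the 2 libraries of each knock-down group is not given in the sources used here, so the p-values measure only the spread between these libraries.

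Counts were normalised by TMM, and the 18415 genes whose counts averaged 5 or more were tested in edgeR (version 4.0.16, R version 4.3.3) by a robust quasi-likelihood fit to all 6 groups (prior count 2), which left 6 residual degrees of freedom. From it 9 contrasts were tested, two-sided, with Benjamini-Hochberg adjustment over all genes. Standard errors and 95% intervals come from the same fit. The procedure was tested on simulated data, drawn independently for each library and without a trend on GC content. It therefore does not cover the GC trend or the likeness between libraries of different groups seen here. The alternatives were other scalings, no filter, DESeq2 (version 1.42.0), each contrast fitted alone, the replicate number as a block, leaving out each library, and, added after the data were seen, removal of a lowess trend on GC content. Positions, lengths and GC content came from GENCODE release 44, in which 99.1% of gene IDs were found.

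The members and lists were chosen with earlier results of these data known. All members are named. Of the other genes of elastic fibres and their surroundings, up to 4 per contrast are named, with the largest change among those called and not overlapping between groups. Further called genes are given as examples after their values were seen. The 5 genes most like FBLN5 were taken by Pearson correlation. A gene among these 5 is not reported here.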

Additional observations from a re-analysis of the deposited data

Results flagged for a closer look

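For 3 of the 10 genes with each hairpin, the effect differed between the 2 fusion lines by the test of the interaction (YT effect minus TC effect, log2, edgeR). Of all genes, 9.37% were called for YEATS2 and 4.32% for ZZZ3. FBLN5 and HMCN1 were called for both hairpins. For the YEATS2 hairpin the differences were -4.51 for FBLN5 (adjusted p = 1.27e-04), 1.94 for EFEMP1 (adjusted p = 0.00661) and 4.33 for HMCN1 (adjusted p = 0.00531). For the ZZZ3 hairpin they were -3.15 for FBLN5 (adjusted p = 0.00175), 1.38 for FBLN1 (adjusted p = 0.0469, a call lost in 9 of 20 alternatives) and 5.05 for HMCN1 (adjusted p = 0.0071). FBLN5 lay above both TC controls in the TC knock-down libraries, but edgeR called neither rise (adjusted p = 0.49 with shYEATS2 and 0.0978 with shZZZ3). In YT it lay below both controls with both hairpins, and both falls were called. HMCN1 was lower in both TC shZZZ3 libraries than in both TC controls, and higher in the YT knock-down libraries than in both YT controls. Its rise with shZZZ3 in YT was not called (adjusted p = 0.0568, edgeR). The 2 knock-downs of a line share the same controls, and the share of all genes that separate in this way is not given here. Whether cell density at collection differed between the lines is not stated for these libraries, and its part in these differences was not tested.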

How the results depend on the processing

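FBLN5 kept its direction and its call in all 20 alternatives for both YT knock-downs, both interactions and the control lines, as did EFEMP1 and HMCN1 for shYEATS2 in YT and its interaction. The number of the 10 genes called moved more. With no filter it was 1 for shYEATS2 and 7 for shZZZ3 in TC, 5 for shZZZ3 in YT, 5 for the ZZZ3 interaction, 4 between hairpins in TC and 8 in YT, beside 213, 744, 2682, 1549, 751 and 2322 of all genes; that fit gave FBN2 in TC shYEATS2, whose replicates differ widely, an adjusted p of 4.25e-11. DESeq2 called 4 for shZZZ3 in TC and 3 between hairpins in TC (532 and 492 of all genes). Fitted alone, the contrasts called 2 for shZZZ3 in TC, 8 for shYEATS2 and 5 for shZZZ3 in YT, and 8 between hairpins in YT, where the same fits called 155, 8784, 1400 and 1579 of all genes against 281, 3821, 1846 and 1327 in the report. With the GC trend removed the counts were 4 for shZZZ3 in TC, 5 for shZZZ3 in YT and 2 between hairpins in TC (681, 3791 and 662 of all genes). Leaving out 1 library changed the number of the 10 genes called in every comparison, depending on the library. The number of all genes called changed in the same fits. Each of these fits leaves 1 sample in a group, and that sample is assumed to vary like the other groups. Their counts of the 10 genes are therefore not set out. ELN, which passes the filter only through its highest group, is 1 of those counted for shZZZ3 in TC in 10 of 20 alternatives. The cause of these moves was not tested.

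The replicate numbers were not taken to pair the libraries. Differences between replicates correlated at 0.18 to 0.898 in the 6 pairs among the TC groups and YT shZZZ3, but at -0.438 to 0.251 in the 9 pairs with YT shNT or YT shYEATS2. With the replicate block the 10 genes gave 5 calls for shZZZ3 in TC, 4 for shZZZ3 in YT and 2 between hairpins in TC (353, 2283 and 331 of all genes), and with block and GC trend together 6, 5 and 4 (968, 4545 and 924), and 5 for the ZZZ3 interaction; no call of a member was lost under the block. Crossing the numbers of YT shNT was a setting chosen after seeing the data, as was the GC trend. Between control lines it gave 3 calls of members, beside 2602 of all genes against 1699 in the report. For shZZZ3 in YT it gave 4, and the count over all genes for that fit is not given here. Under the block LTBP1 reversed to -0.039 for shYEATS2 in TC (-0.083 with the GC trend) and EFEMP2 to 0.0021 between control lines (0.13 with the GC trend, and 0.13 with the GC trend alone).

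The other reversals were of values not called. FBLN1 reversed with shYEATS2 in YT (0.0117 with DESeq2 size factors, 0.0087 with no filter and 0.0117 with DESeq2) and in the YEATS2 interaction (-0.0302 with library totals, -0.19 with the GC trend removed and -0.19 with block and GC). ELN reversed in that interaction (-0.0271 with library totals, -0.17 with DESeq2, -0.21 with the GC trend removed and -0.20 with block and GC), FBN1 between control lines (-0.0298 with library totals, -0.0338 with no filter, -0.0237 with the GC trend removed) and EFEMP2 in the ZZZ3 interaction (0.0203 with no filter). Leaving out 1 library gave ranges across 0 for shYEATS2 in TC of -0.37 to 0.31 (FBLN1), -0.66 to 0.85 (FBLN2), -0.56 to 0.17 (EFEMP1), -0.73 to 0.12 (EFEMP2), -0.57 to 0.35 (FBN1), -0.50 to 2.66 (FBN2), -0.86 to 0.57 (LTBP1) and -1.60 to 0.30 (HMCN1). For shZZZ3 in TC they were -0.65 to 0.0318 (FBLN1), -0.15 to 0.22 (FBLN2) and -0.78 to 0.0738 (EFEMP2). In YT they were -0.0377 to 0.0463 (FBLN1) and -1.66 to 0.16 (ELN) with shYEATS2, and -1.55 to 0.26 (ELN) with shZZZ3. In the YEATS2 interaction they were -0.30 to 0.38 (FBLN1), -1.19 to 0.32 (FBLN2) and -0.56 to 1.26 (ELN), and in the ZZZ3 interaction -0.51 to 0.35 (EFEMP2). Between control lines they were -0.42 to 0.42 (EFEMP2), -0.31 to 0.35 (FBN1) and -0.75 to 0.24 (HMCN1). Between hairpins they were -0.67 to 0.84 (FBLN2), -0.70 to 0.19 (FBLN5), -0.0361 to 0.11 (EFEMP2) and -2.66 to 0.50 (FBN2) in TC, and -0.42 to 0.37 (ELN) in YT.

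Over all genes the calls ranged between alternatives from 0 to 213 (shYEATS2 in TC, 8 in the report), 50 to 968 (shZZZ3 in TC, 281), 1516 to 8784 (shYEATS2 in YT, 3821), 501 to 4545 (shZZZ3 in YT, 1846), 789 to 4335 (YEATS2 interaction, 1725), 206 to 2539 (ZZZ3 interaction, 795), 470 to 4128 (control lines, 1699), 29 to 924 (hairpins in TC, 221) and 360 to 3635 (hairpins in YT, 1327). At 0 to 26 counts per library, depth limits what can be said of ELN.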
